A study of Homo sapiens with 36 samples.

Results

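The H3K27ac peaks of 2 human lung lines were compared on chromosomes 1 to 12, because the A549 list ends within chromosome 13. All H3K27ac peaks there were taken, which gave 28190 peaks in A549 and 24654 in B2B out of 28550 and 40346 in the whole lists. A549 is a lung adenocarcinoma line, and B2B is BEAS-2B, a virally immortalized line of bronchial epithelial cells. The series used chromatin immunoprecipitation with sequencing (ChIP-seq) on both lines for histone marks, Mediator, RNA polymerase II (pol II) and the Jun family, with input samples of each line, and the labels name no treatment for any sample. The H3K27ac antibody was the same in both lines. Each line is a single established culture, so a difference between the lists is a difference between 2 lines and not between cancer and normal lung. Each list came from 2 replicates that the authors merged, so no value below has a replicate error and no comparison has a test between samples. Intervals given with shares and differences are 95% intervals that cover counting error only.

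Acetylation of lysine 27 on histone H3 is deposited by the coactivators CBP and p300 at active promoters and enhancers. Start sites that fire in most cells usually carry it in every line, whereas distal sites differ more between cell types. JunB, Jun and JunD pair with one another or with Fos proteins to form AP-1, which binds the sequence TGAGTCA, whose reverse complement is TGACTCA, mostly at enhancers.

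The windows below are reference sequence, hg38, plus strand, of 101 bp centered on a Jun-family summit. Each summit is that of the strongest Jun-family peak overlapping a distal H3K27ac region that all 3 Jun proteins of that line bound. At EGFR and TRPM3 the summit itself lay just outside the region. The windows are shown because they belong to the strongest H3K27ac regions of that kind called in A549 alone, in B2B alone and in both lines. Capitals mark the AP-1 sequence. None overlapped an annotated untranslated region.
A549-only, near RTN4RL2, chr11:57458120-57458220: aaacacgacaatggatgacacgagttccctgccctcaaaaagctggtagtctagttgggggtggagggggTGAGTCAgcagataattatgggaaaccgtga
A549-only, first copy near FCGR2A, chr1:161448229-161448329: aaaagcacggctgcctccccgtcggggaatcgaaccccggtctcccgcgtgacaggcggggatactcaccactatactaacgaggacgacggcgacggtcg
A549-only, last copy near FCGR2A, chr1:161463011-161463111: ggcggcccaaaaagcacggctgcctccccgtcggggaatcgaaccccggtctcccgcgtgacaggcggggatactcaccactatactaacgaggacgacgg
B2B-only, intron of CPA5, chr7:130357209-130357309: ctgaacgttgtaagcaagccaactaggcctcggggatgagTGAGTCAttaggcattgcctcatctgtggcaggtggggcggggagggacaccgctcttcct
B2B-only, intron of TRPM3, chr9:70601216-70601316: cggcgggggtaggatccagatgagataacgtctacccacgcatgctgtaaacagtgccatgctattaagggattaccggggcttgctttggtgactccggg
B2B-only, between genes on chromosome 3, chr3:197394724-197394824: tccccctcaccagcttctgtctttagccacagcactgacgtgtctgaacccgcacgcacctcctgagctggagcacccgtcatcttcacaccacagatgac
Shared, intron of ITGB5, chr3:124835133-124835233: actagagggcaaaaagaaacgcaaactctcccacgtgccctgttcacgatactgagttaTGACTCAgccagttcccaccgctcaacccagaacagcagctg
Shared, intron of EGFR, chr7:55132985-55133085: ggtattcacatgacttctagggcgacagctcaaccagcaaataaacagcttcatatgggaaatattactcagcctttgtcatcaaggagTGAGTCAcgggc

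Both shared windows held the AP-1 sequence. The ITGB5 region, in an intron of the gene for integrin beta 5, had an H3K27ac fold enrichment of 58.6 in A549 and 25.2 in B2B. Its Jun peak had a fold enrichment of 21.1 in A549 and 27.9 in B2B. The EGFR region, in an intron of the epidermal growth factor receptor gene, had an H3K27ac fold enrichment of 45.3 in A549 and 27.7 in B2B, and its Jun peak had 46.7 and 26.2. Fold enrichment is the pileup of reads at the summit over the local background that the peak caller used, and it is not on one scale between lists. The region in CPA5, a carboxypeptidase gene, was acetylated in B2B alone, with a fold enrichment of 21.1, and it held the AP-1 sequence. Jun-family peaks were called there in both lines, with Jun at 29.6 in B2B and 19.1 in A549, although A549 had no H3K27ac peak within 5 kb. The region near RTN4RL2, a Nogo receptor family gene, was acetylated in A549 alone with a fold enrichment of 63.0. Its window also held the AP-1 sequence, and no Jun-family peak was called there in B2B.

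The other 3 A549-only regions, with fold enrichments between 89.5 and 115.55, lay on chromosome 1 from position 161446558 to position 161466014. They lay between protein-coding genes and in the annotated gene ENSG00000283360. Med1 was called at them in both lines, and pol II and H3K4me3 in A549 alone. Genes missing from the annotation used were not checked, so a start site there could have been overlooked. The outer regions shared an identical run of 4611 bp, and the shown windows of this pair shared 92 bp. Reads from such copies cannot be told apart, so these values are uncertain. None of these windows held the AP-1 sequence. On the B2B side, adjacent regions on chromosome 3 at 197393714 to 197394780 and 197394945 to 197396440 touched the same Jun peak, whose fold enrichment was 40.7. Neither this window nor the one in TRPM3 held the AP-1 sequence. In all, 210 A549-only and 75 B2B-only distal regions had all 3 Jun proteins of their own line and no H3K27ac peak of the other line within 5 kb. Shared distal regions with all 3 proteins in both lines numbered 138.

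To ask where the acetylated sites of the lines differ, overlapping peaks of the lists were merged into 36451 regions. A region was called A549-only, shared or B2B-only by the lists that touched it by at least 1 bp. It was called start-site if it lay within 1 kb of an annotated transcript start, and distal otherwise. Of 15884 start-site regions, 9241 were shared (58.2%, 57.4 to 58.9%), 4669 were A549-only (29.4%) and 1974 were B2B-only (12.4%). Of 20567 distal regions, 3693 were shared (18.0%, 17.4 to 18.5%), 10279 were A549-only (50%) and 6595 were B2B-only (32.1%). The shared share was thus higher at start sites than at distal sites, and A549-only regions outnumbered B2B-only regions at both.

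Sharing was highest on the start sites themselves. Among 10767 regions that lay on a start site, 74.5% were shared. Among 2215 regions between 500 bp and 1 kb away, just inside the limit, 22.5% were shared, and among 1585 regions between 1 and 1.5 kb away, just outside it, 21.3% were. Shared regions were also the wider ones, with a median width of 1212 bp at start sites and 534 bp at distal sites. A549-only regions had median widths of 389 and 288 bp, and B2B-only regions 299 and 275 bp. Many line-only regions lay near acetylation of the other line. A B2B peak lay within 5 kb of 35.2% of the A549-only start-site regions and 30.2% of the A549-only distal regions. An A549 peak lay within 5 kb of 48.3% and 35.2% of the B2B-only regions.

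The known promoter marks were checked at these regions. H3K4me3, a promoter mark, was called at 92.7% of the shared start-site regions in A549 and 84.6% in B2B. It was called in A549 at 68.0% of the A549-only start-site regions, and in B2B at 24.4% of the B2B-only start-site regions. At distal line-only regions it was called at 27.8% of the A549-only regions in A549 and at 5.19% of the B2B-only regions in B2B, although these lie over 1 kb from every annotated start site. Pol II was called in A549 at 46.8% of the A549-only start-site regions and 31.8% of the A549-only distal regions. In B2B it was called at 17.8% and 14.5% of the B2B-only regions. Med1, a Mediator subunit that marks active enhancers, was nearer between the lines, at 14.1% of the A549-only distal regions in A549 and 17.2% of the B2B-only distal regions in B2B.

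**Figure D1:**
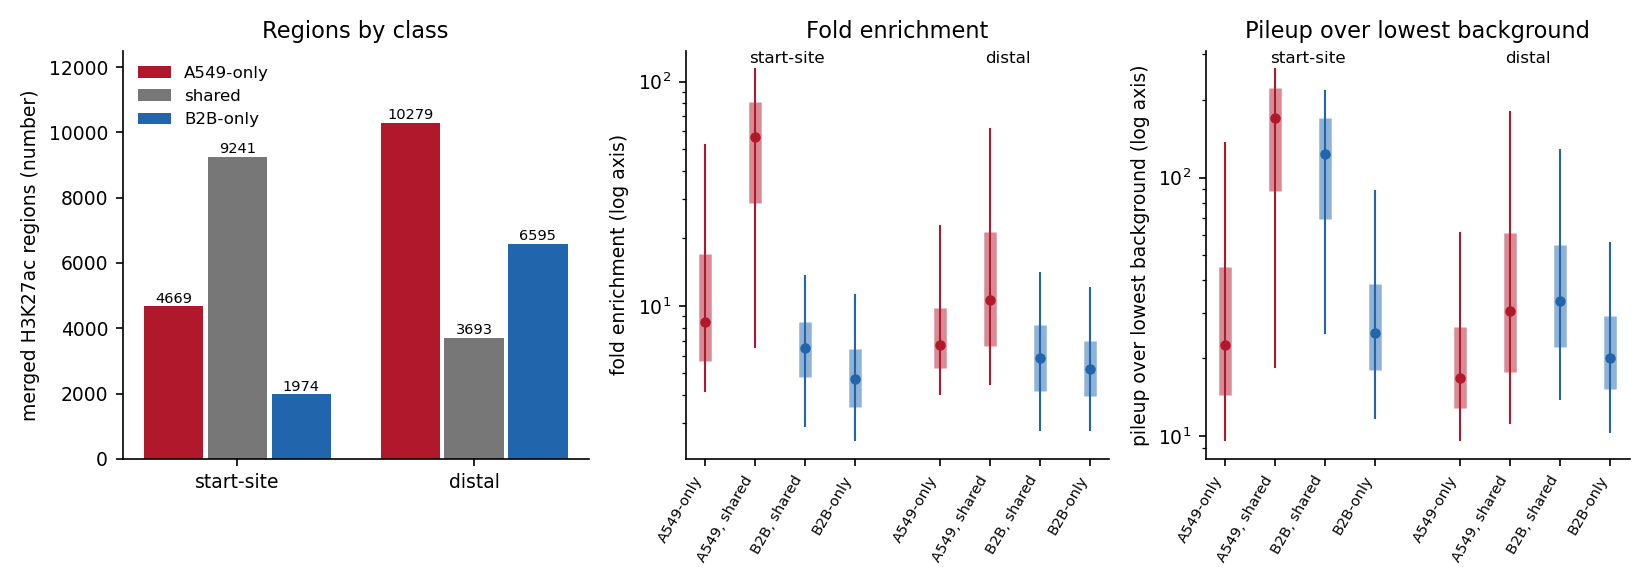
The left panel gives the number of merged H3K27ac regions by class and location. The other panels give fold enrichment and pileup over the lowest background of the list on log axes, with dots for medians, thick bars for the middle 50% and thin bars from the 5th to the 95th percentile; at shared start-site regions the medians are 56.5 and 6.46 by fold enrichment but 169 and 123 by pileup.

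How strongly a shared region was acetylated in each line depended on the scale. At shared start-site regions the median fold enrichment was 56.5 in A549 and 6.46 in B2B, and A549 had the higher value in 96.2% of the regions. The pileup and the local background behind each peak can be solved exactly from the deposited values. Divided by the lowest background of its list, the median pileup there was 169 in A549 and 123 in B2B, with a median ratio of 1.26. The local background was 1.95 times the lowest in A549 and 18.2 times in B2B, so most of the difference in fold enrichment stood in the background. At shared distal regions the median fold enrichment was 10.6 in A549 and 5.83 in B2B. By pileup the medians were 30.5 and 33.3, and A549 was higher in 50.6% of the regions. Fold enrichments are therefore compared below within a line and not between the lines.

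The lists also differed in the weakest pileups they held. The 5th percentile of the start-site peaks was a pileup of 18.0 times the lowest background in B2B and 11.2 times in A549. Of the A549-only start-site regions, 38.7% (37.3 to 40.1%) lay under the B2B value. Of the B2B-only start-site regions, 3.95% (3.18 to 4.90%) lay under the A549 value. At distal sites 13.1% and 1.68% lay under the 5th percentile of the other list. When both lists were held to a pileup of at least 20 times the lowest background, a limit chosen after the data were seen, A549-only regions made up 60.5% of the line-only start-site regions instead of 70.3%. At distal sites they made up 51.5% instead of 60.9%.

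To ask which genes carried promoter acetylation in one line only, 12573 protein-coding genes were scored by a peak within 1 kb of any of their start sites. Both lines had a peak at 7646 genes (60.8%), A549 alone at 1362 (10.8%) and B2B alone at 247 (1.96%). The rest had no peak in either list. Among the A549-only promoters, 1254 had no B2B peak within 5 kb of any start site, and 193 of the B2B-only promoters had no A549 peak there.

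Among the A549-only promoters of highest fold enrichment were those of CNTNAP3B (125), RSPO3 (124), CACNA2D1 (120.4), EPDR1 (116) and BMPR1B (116). RSPO3 is a secreted activator of Wnt signaling, on chromosome 6 at 127118671 to 127199481. CACNA2D1 is a calcium channel subunit, and BMPR1B is a receptor for bone morphogenetic proteins with 8 A549-only distal regions beside its promoter peak. CNTNAP3B lies in a family of near-identical copies, so its value is uncertain. The B2B-only promoters of highest fold enrichment belonged to CDKN2A (19.9), ENSG00000284895 (18.9), ZNF736 (18.3), TNNT2 (15.7), OR2F2 (15.5) and H4C6 (15.3). CDKN2A encodes the cell-cycle inhibitor p16, on chromosome 9 at 21967752 to 21995301, and whether A549 retains this DNA was not tested. TNNT2 encodes cardiac troponin T. H4C6 is a histone gene of a family of near-identical copies, so its value is uncertain.

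Distal regions were assigned to the protein-coding gene with the nearest start site. Of all genes, 3201 (25.5%) had more A549-only than B2B-only distal regions, and 1617 (12.9%) had more B2B-only ones. Where a promoter was marked in one line only, the distal regions of that gene leaned to the same line. Genes with an A549-only promoter had 1542 A549-only and 202 B2B-only distal regions, so 88.4% were A549-only (86.8 to 89.8%). Genes with a B2B-only promoter had 70 and 221, so 24.1% were A549-only (19.5 to 29.3%). For genes marked in both lines the share was 56.2% (55.4 to 57.1%). Genes with no promoter peak in either line also leaned to A549, with 1321 A549-only and 458 B2B-only distal regions (74.3% A549-only, 72.2 to 76.2%). Regions near one gene are not independent, so these intervals are too narrow.

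The largest excess of A549-only regions lay near MYC, the growth-promoting transcription factor on chromosome 8, with 46 A549-only, 34 shared and 6 B2B-only distal regions. AOPEP, an aminopeptidase gene, had 42, 12 and 7. PFKFB3, a kinase that stimulates glycolysis, had 36 A549-only regions, 1 shared and 1 B2B-only, and PFKP, a phosphofructokinase, had 31, 9 and 0. TBC1D8, a gene of the Rab-regulating TBC family, had 34 A549-only regions and no other, and PGD, an enzyme of the pentose phosphate pathway, had 26 and no other. NTMT1, a protein N-terminal methyltransferase, had 35 A549-only, 6 shared and 4 B2B-only regions. MLPH, which links vesicles to myosin, had 30, 1 and 0, and its promoter peak was A549-only with a fold enrichment of 78.3. Among these 8 genes MLPH alone had a promoter peak in one line only.

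The largest excess of B2B-only regions lay near NDST1, an enzyme of heparan sulfate synthesis, with no A549-only, 5 shared and 31 B2B-only distal regions. AFAP1, an actin-binding adaptor, had 3, 10 and 33, and COL5A1, a chain of collagen V, had 2, 1 and 29. KLHL29 had 2, 1 and 28, and HPCAL1, a calcium sensor, had 7, 9 and 32. TTC7A, a scaffold of lipid kinases, had 3, 21 and 27, and ASAP2, which regulates Arf proteins, had 2, 6 and 25. GLI2, the Hedgehog transcription factor, had regions of every class, with 16 A549-only, 16 shared and 38 B2B-only. All 8 had promoter peaks in both lines. Jun was called in B2B at 8 of the 29 B2B-only regions near COL5A1 and JunB at 2, and at 8 and 1 of the 25 near ASAP2. Over all B2B-only distal regions Jun was called at 22.1% and JunB at 5.08%, so an excess of Jun over JunB is not particular to these genes.

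**Figure D2:**
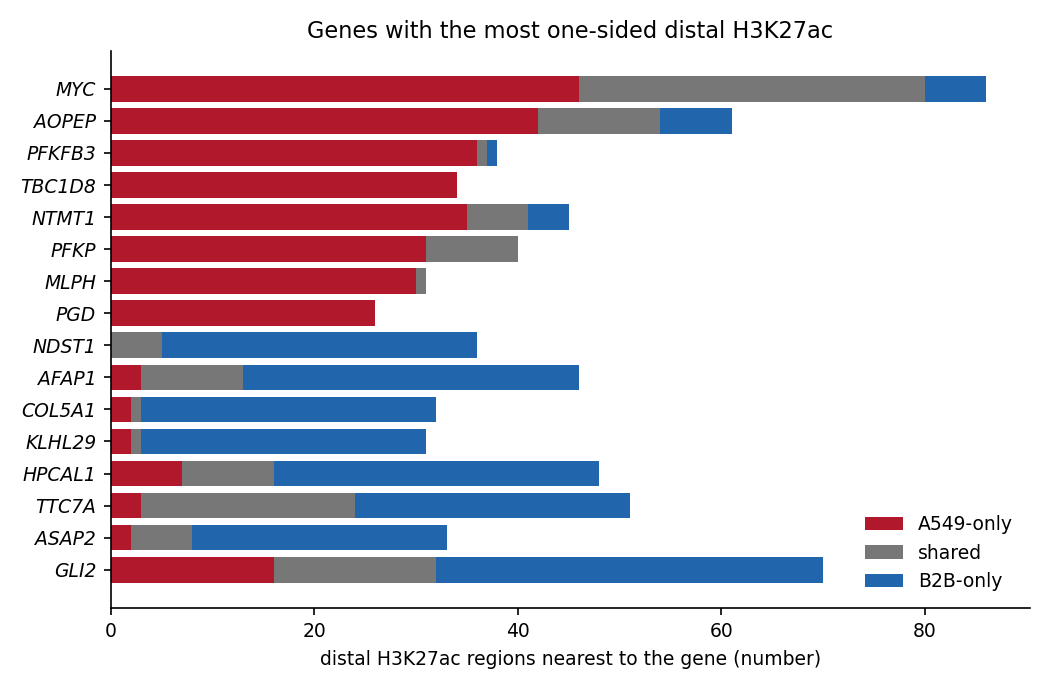
Each bar gives the number of distal H3K27ac regions nearest to a gene, split into A549-only, shared and B2B-only. The upper 8 genes had the largest A549 excess and the lower 8 the largest B2B excess; MYC, TTC7A and GLI2 also had 34, 21 and 16 shared regions.

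Line-only regions were also spread unevenly along the chromosomes. Among 751 bins of 1 Mb with at least 10 line-only regions, 65 held A549-only regions and no B2B-only region, and 3 held B2B-only regions and no A549-only region. The fullest of the 65 lay on chromosome 10 from 46000001 to 47000000, with 52 A549-only and 13 shared regions. The fullest of the 3 lay on chromosome 5 from 181000001 to 182000000, with 22 B2B-only regions and no shared one. A549 thus had no H3K27ac peak in that bin, and whether its list covers the bin is not known. By chromosome, the A549-only share of the line-only distal regions lay between 52.8% on chromosome 3 and 69.1% on chromosome 8.

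Gene groups were then described by their nearest distal regions and promoters. Over all genes, 60.9% of the line-only distal regions were A549-only. Promoters were marked in both lines at 60.8% of all genes, in A549 alone at 10.8% and in B2B alone at 1.96%. The targets of NRF2, the transcription factor that switches on antioxidant and detoxification enzymes, stood near one end. Their 25 genes on these chromosomes had 185 A549-only, 12 shared and 1 B2B-only distal regions. The median excess per gene was 6, against 0 over all genes, and 20 of the 25 genes had more A549-only than B2B-only regions. TXNRD1, thioredoxin reductase, had 23 A549-only regions, and TKT, transketolase of the pentose phosphate pathway, had 21. ABCC2, an export pump, had 15 and UGDH, which makes the substrate for glucuronidation, had 13. SLC7A11, the cystine transporter, had 10. Promoter peaks were present in both lines at 19 of the 25 genes and in A549 alone at AKR1B10, AKR1C1, AKR1C3, ABCC2 and ALDH1A1. The AKR1C genes are near-identical in part, so reads there are uncertain. At a pileup of at least 20 times the lowest background the NRF2 targets had 107 A549-only and no B2B-only regions, against 51.5% A549-only over all genes.

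The A549-only regions near NRF2 targets were described further by the other lists. Med1 was called at 87 of the 185 (47.0%, 40.0 to 54.2%), against 14.1% of all A549-only distal regions. Pol II was called at 67.6% (60.5 to 73.9%) against 31.8%. Many of these regions lay near the same gene, so the intervals are too narrow. The regions near NRF2 targets were also stronger, with a median fold enrichment of 8.30 against 6.69, and the part of strength was not tested. Jun-family peaks were not more frequent there, with JunB at 10.3% against 13.3% and Jun at 11.4% against 13.4%. The sequence TGACNNNGC, the core of the antioxidant response element to which NRF2 binds, had 0.329 matches per kb in these regions and 0.487 per kb in all A549-only distal regions. The AP-1 sequence had 0.110 per kb there and 0.202 per kb in all A549-only distal regions.

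Genes of liver-like endoderm, which lung adenocarcinoma cells can turn on, had 18 A549-only and no B2B-only distal regions. Of 20 genes, 8 had an A549-only promoter, against 10.8% of all genes. These 8 included the transcription factors HNF4G (fold enrichment 103), NR5A2 (37.3), PROX1 (22.6) and GATA4 (18.9). AFP was marked in B2B alone (6.55). AKR1B10, which also stands among the NRF2 targets, gave 8 of the 18 regions. At a pileup of at least 20 times the lowest background the group had 9 A549-only regions and 1 B2B-only. ALB, APOB and the fibrinogen genes FGA, FGB and FGG had no promoter peak in either list. Lung secretory and alveolar genes had 24 A549-only and 4 B2B-only distal regions, of which 13 A549-only regions lay near the mucin gene MUC5B. Promoters of SFTPC, SFTPD, LAMP3, MUC5AC, MUC5B and AGR2 were marked in A549 alone, and those of AQP5 and AGER in B2B alone. These were 6 and 2 of 22 genes, against 10.8% and 1.96% of all genes. SFTPA1, SFTPA2 and SFTPB, which encode surfactant proteins, had none in either list. With the limit on pileup 6 A549-only and 4 B2B-only regions were left (60% A549-only), against 51.5% over all genes.

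Simple epithelial and junction genes had 58 A549-only and 16 B2B-only distal regions (78.4% A549-only, 67.7 to 86.2%). KRT8, a keratin of simple epithelia, and ELF3, an epithelial transcription factor, each had 11 A549-only and no B2B-only regions. EHF, of the same family as ELF3, had 8 A549-only regions and no promoter peak. Airway basal cell genes had 11 and 9 (55% A549-only, 34.2 to 74.2%), near the share over all genes. TP63, KRT5, KRT6A and KRT6B, the defining genes of basal cells of the bronchus, had no promoter peak in either line, although B2B derives from bronchial epithelium.

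Mesenchymal genes stood at the other end, with 30 A549-only, 29 shared and 81 B2B-only distal regions (27% A549-only, 19.6 to 36%). COL5A1 gave 29 of the 81, LOXL2, a collagen cross-linking enzyme, 13, and SPARC and DKK3 8 each. B2B-only promoters belonged to SNAI2, COL1A2, SPARC, PDGFRB, TNC and THY1, and the A549-only promoter to PRRX1. These were 6 and 1 of 32 genes, against 1.96% and 10.8% of all genes. VIM, ZEB1, ZEB2, TWIST1 and FN1 had promoter peaks in both lines. Not every gene leaned to B2B, since TWIST2 had 9 A549-only and 2 B2B-only regions. Matrix protease and urokinase genes had 12 A549-only and 25 B2B-only regions, of which 12 B2B-only regions lay near ADAM12, a metalloprotease gene. At a pileup of at least 20 times the lowest background the mesenchymal genes had 23 A549-only and 64 B2B-only regions, and the matrix protease genes 2 and 14.

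Targets of YAP and TEAD, which respond to cell stretch and density, had 67 A549-only, 67 shared and 102 B2B-only distal regions (39.6% A549-only, 32.6 to 47.2%). ARHGEF17 had 21 B2B-only and no A549-only regions. AMOTL2, a regulator of YAP, had 14 B2B-only, 14 shared and 1 A549-only. MYOF had 4 A549-only, 15 shared and 9 B2B-only regions. WWTR1, which encodes the YAP relative TAZ, and DOCK5 each had 13 A549-only and 1 B2B-only regions. All but FOXF2 of the 24 genes had promoter peaks in both lines.

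Promoter status split the HOX clusters, whose genes set positional identity. Of 11 HOXA genes on chromosome 7, 10 had an A549-only promoter, with fold enrichments from 18.3 to 101, and HOXA2 had none in either list. Of 9 HOXD genes on chromosome 2, 6 had an A549-only promoter and 3 had none. Of 9 HOXC genes on chromosome 12, 6 were marked in both lines, HOXC10 and HOXC11 in A549 alone and HOXC12 in B2B alone. Neighboring HOX genes can share one wide peak and are not independent.

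At 9p21, CDKN2A and its neighbor CDKN2B, both cell-cycle inhibitors, had promoter peaks in B2B alone. Whether A549 retains the DNA of these genes was not tested, so the missing A549 peaks do not by themselves show missing acetylation. MTAP, the next gene, was marked in both lines, with fold enrichments of 30.2 in A549 and 12.4 in B2B, as were DMRTA1, KLHL9 and FOCAD. Growth factor receptors and ligands had 51 A549-only, 43 shared and 21 B2B-only distal regions, including 4, 11 and 6 near EGFR and 3, 13 and 4 near EPHA2. Their A549-only share of 70.8% (59.5 to 80.1%) had an interval that held the share over all genes. FGF1 and FGF5 had B2B-only promoters, and ERBB4 and BMP6 A549-only ones. Inflammatory genes had 6 A549-only and 3 B2B-only distal regions (66.7% A549-only, 35.4 to 87.9%), near the share over all genes. The promoters of PTGS2, CXCL5 and TLR2 were marked in A549 alone and those of IL7R and IL24 in B2B alone. Genes of AP-1 subunits had 18 A549-only and 12 B2B-only regions (60% A549-only), near the share over all genes. With the limit on pileup these counts became 9 and 10. In this group 8 of 9 promoters were marked in both lines, JUN, FOSL1 and FOSL2 among them. FOSL2 had 9 B2B-only regions and 2 A549-only ones. All 15 proteasome subunit genes and all 39 nuclear genes of respiratory chain subunits, which served as genes that every cell uses, had promoter peaks in both lines. Of all genes, 60.8% had them in both.

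**Figure D3:**
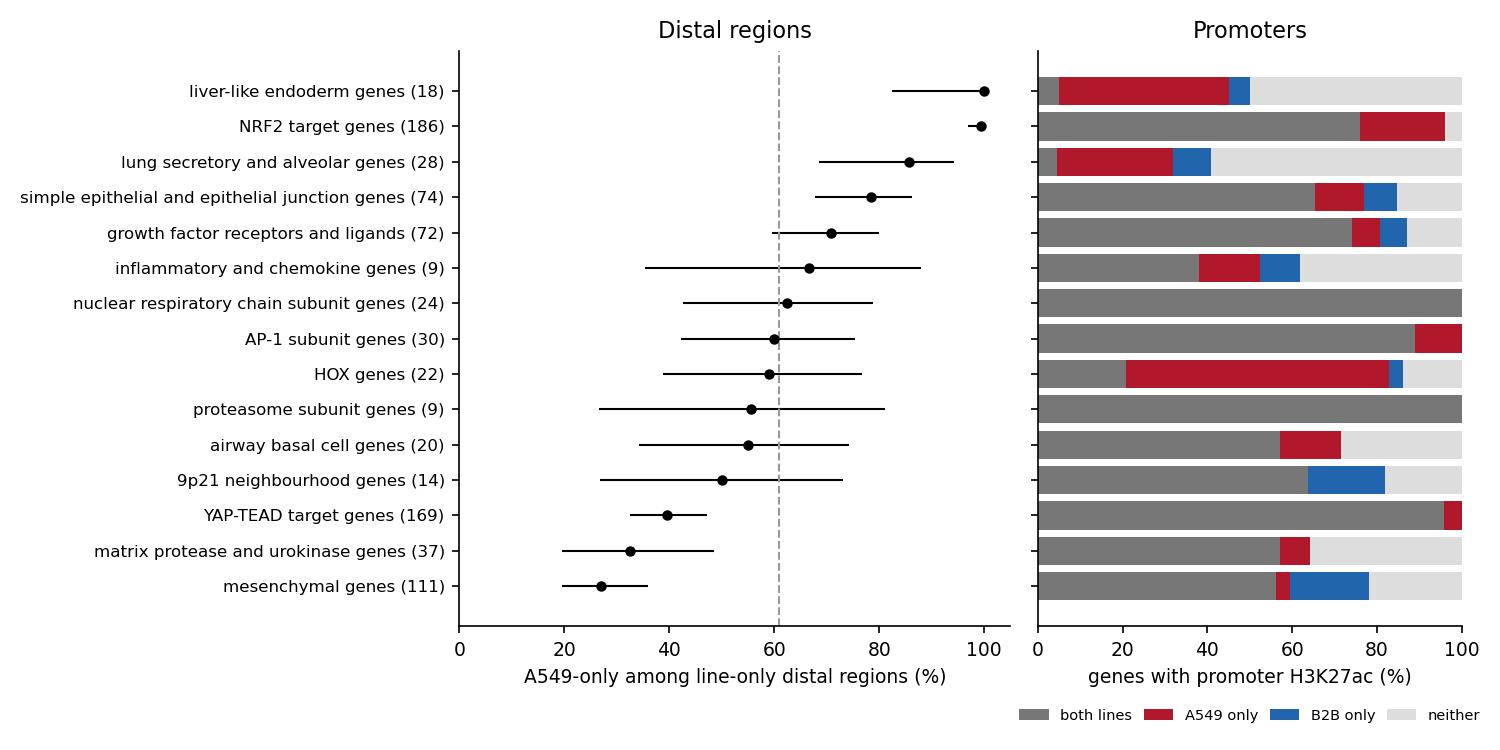
The left panel gives, for each gene group, the percent of line-only distal regions that were A549-only with 95% Wilson intervals (counting error only), the number of such regions in brackets and all genes as the dashed line at 60.9%. The right panel gives the percent of genes by promoter status; NRF2 targets stand at 99.5% and mesenchymal genes at 27%.

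To ask how acetylation and AP-1 binding overlapped, each region was scored for peaks of JunB, Jun and JunD in each line. The lists differed in size on chromosomes 1 to 12, since JunB had 19926 peaks in A549 but 6318 in B2B. Jun had 24939 and 32978, and JunD had 6438 and 6206. Over start-site regions of any class, JunB was called at 22.6% in A549 and 2.30% in B2B, Jun at 25.8% and 11.3%, and JunD at 12.6% and 0.913%. Over distal regions JunB was called at 13.5% in A549 and 5.03% in B2B, Jun at 13.8% and 16.9%, and JunD at 4.02% and 2.24%.

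At start sites, the A549 proteins stood mainly at shared regions. JunB was called in A549 at 33.6% of the shared start-site regions and in B2B at 2.88%, a difference of 30.7 percentage points (29.8 to 31.7). With JunB lists of equal length the difference was 6.11 points. Jun was called at 38.6% in A549 and 14.6% in B2B, and JunD at 19.9% and 1.09%. At A549-only start-site regions JunB was called at 9.81% in A549 and 0.857% in B2B. There the difference of 8.95 points became 3.06 with lists of equal length. At B2B-only start-site regions Jun was called at 14.4% in B2B and 2.48% in A549. JunB was called there at 2.99% and 1.42%, a difference of -1.57 points (-2.33 to -0.810), which was -0.500 with an interval over 0 at a pileup of at least 20 times the lowest background. For JunD the shares were 1.01% and 0.659%, and the difference could not be told from counting error (-0.924 to 0.215 points).

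At distal sites, each line's own proteins were called more often at its own regions. At A549-only distal regions JunB was called at 13.3% in A549 and 1.82% in B2B, Jun at 13.4% and 6.23%, and JunD at 3.58% and 0.983%. The differences there were 11.4, 7.13 and 2.60 points, and at a pileup of at least 20 times the lowest background they were 19.5, 12.4 and 5.28. At B2B-only distal regions Jun was called at 22.1% in B2B and 3.14% in A549, a difference of -19.0 points (-19.95 to -18.03). JunB was called there at 5.08% in B2B and 2.62% in A549, and JunD at 1.59% and 0.136%. Shared distal regions had the most, but shared regions were also the wider ones, at start sites too. The part of width in the shares by class was not tested. JunB was called at 33.4% of the shared distal regions in A549 and 13.9% in B2B, and JunD at 12.2% and 6.88%. With JunB lists of equal length the JunB differences were 5.85 points at A549-only and 7.20 at shared distal regions. Jun was called at 34.1% of the shared regions in A549 and 37.0% in B2B, a difference of -2.87 points (-4.19 to -1.55). That small difference turned to 1.00 points at a pileup of at least 20 times the lowest background and to 0.432 with start sites of protein-coding transcripts alone, so its direction is not settled. Where both lines had acetylated a distal region, 1004 of 3693 regions had a Jun peak in both lists. When the Jun-family summit had to lie within 250 bp of the H3K27ac summit, the differences were smaller, for example 17.3 points for JunB at shared start-site regions and -10.1 for Jun at B2B-only distal regions.

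The proteins differed in how they split between line-only regions. JunB of the own line was called at 13.3% of the A549-only and 5.08% of the B2B-only distal regions, a difference of 8.17 points (7.32 to 9.01). For Jun the order was the other way, with 13.4% and 22.1% and a difference of -8.78 points (-9.99 to -7.59). At a pileup of at least 20 times the lowest background the Jun difference was -1.14 points and its interval included 0, whereas that of JunB was 17.3. With Jun-family lists of equal length it was 2.59 for JunB and -6.98 for Jun. In B2B nearly every region with a Jun-family peak had Jun itself, since 1463 B2B-only distal regions had any Jun-family peak and 1460 had Jun. In A549 the figures were 1695 and 1373.

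**Figure D4:**
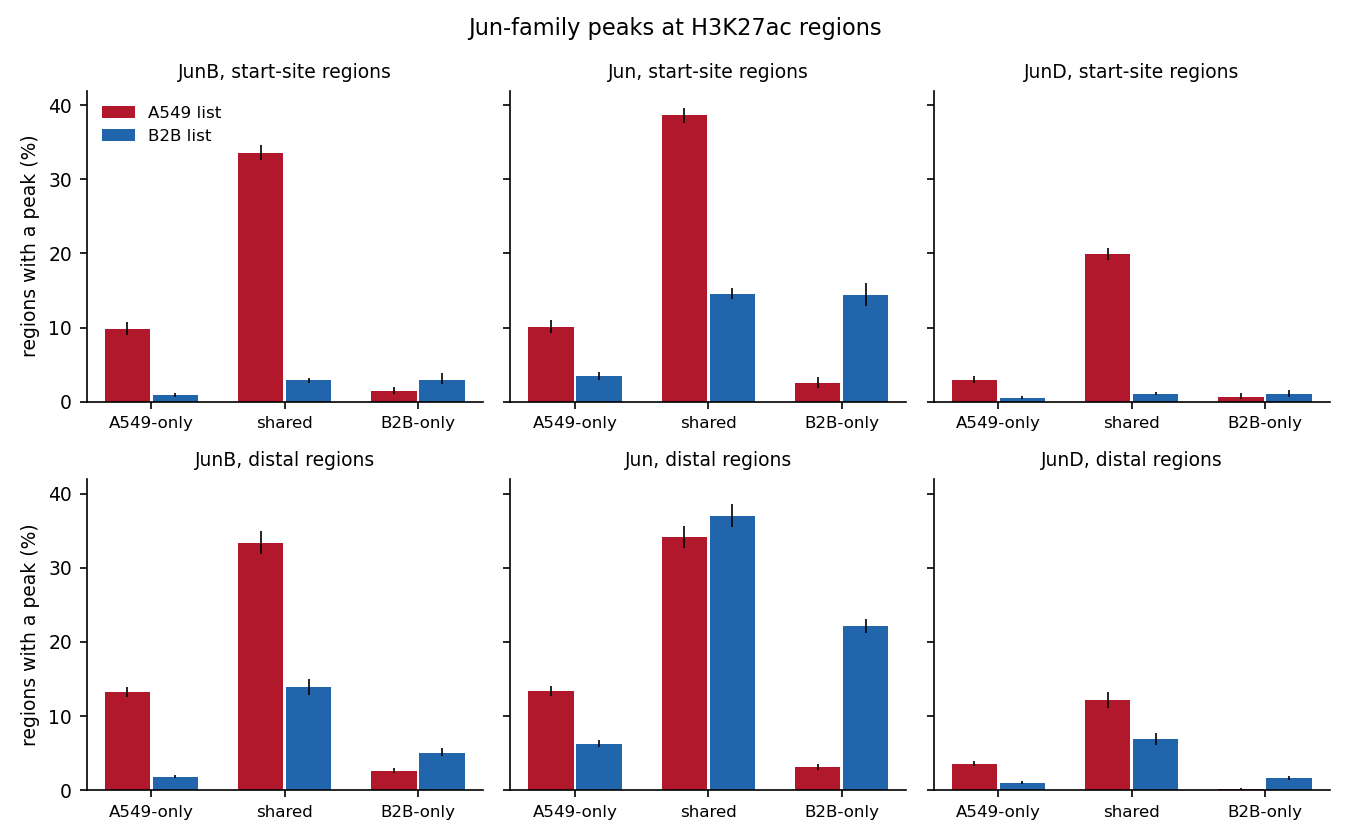
Bars give the percent of H3K27ac regions with a peak of JunB, Jun or JunD in A549 and in B2B, by class, for start-site regions (upper row) and distal regions (lower row), with 95% Wilson intervals for counting error. Shared regions have the highest A549 shares in every panel, and B2B Jun reaches 37.0% at shared and 22.1% at B2B-only distal regions.

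The stronger an H3K27ac region was within its line, the more often its line's Jun proteins were called there. A549-only distal regions were split into 4 groups of equal size by fold enrichment. JunB was called at 6.42% of the weakest group and 24.8% of the strongest, Jun at 5.91% and 26.0%, and JunD at 1.36% and 8.48%. In B2B-only distal regions Jun was called at 5.64% of the weakest group and 44.2% of the strongest, JunB at 0.849% and 11.2%, and JunD at 0.182% and 3.82%. Med1 was called at 5.37% and 32.6% of these groups in A549 and at 6.67% and 34.3% in B2B. Width moved with strength, since the median width was 220 bp in the weakest and 478 bp in the strongest group in A549 and 250 and 343 bp in B2B. Its part in the result was not tested.

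Seen from the Jun side, most peaks overlapped no called H3K27ac region. A peak lying just beside a region was not counted, and no distance between them was allowed for. Of the A549 peaks, 33.9% of JunB, 29.3% of Jun and 48.0% of JunD overlapped an H3K27ac region of any class. Of the B2B peaks, 21.2% of JunB, 15.2% of Jun and 9.33% of JunD did. JunD in A549 stood apart, with 32.9% of its peaks at shared start-site regions against 18.5% for JunB and 16.5% for Jun. JunD in B2B had 1.58% there.

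The AP-1 sequence was counted on both strands within 50 bp of each Jun-family summit. At A549 JunB peaks it was found at 55.2% of those in A549-only distal regions, 58.0% in shared distal regions and 51.2% outside every H3K27ac region, but at 21.3% in shared start-site regions. Windows of the same length 2 kb away held it at between 1.45% and 2.28% in these sets. At A549 JunD peaks of shared start-site regions it was found at 15.0%. B2B differed at start sites, where it was found at 76.6% of the JunB peaks in shared regions. At B2B Jun peaks it was found at 52.4% in shared distal regions and 33.2% in B2B-only distal regions. At 620 B2B Jun peaks inside A549-only distal regions, where B2B had no H3K27ac peak, it was found at 59.8%.

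Across whole regions, the AP-1 sequence had 0.370 matches per kb in shared distal regions, 0.202 in A549-only and 0.193 in B2B-only distal regions, and 0.158 over chromosomes 1 to 12. The line-only distal regions did not differ beyond counting error, with a ratio of 1.05 (0.930 to 1.17). At start sites the sequence was sparser in A549-only than in B2B-only regions, with 0.105 and 0.165 matches per kb and a ratio of 0.637 (0.518 to 0.784). The sequence ACATTCC, to which TEAD factors bind, had 0.0654 matches per kb in A549-only and 0.144 in B2B-only distal regions, a ratio of 0.454 (0.386 to 0.534). At start sites the ratio was 0.475 (0.371 to 0.607). Both densities lay under the 0.163 of all sequence on these chromosomes. TGTGGTT, the RUNX sequence, was also sparser in A549-only distal regions, with a ratio of 0.739 (0.648 to 0.844), and AACNGGTT, bound by grainyhead factors, had 0.618 (0.459 to 0.832). TGTTTAC, bound by forkhead factors, was denser in A549-only than in B2B-only distal regions, with a ratio of 1.45 (1.19 to 1.76), but 0.815 (0.594 to 1.12) at start sites. Its distal densities of 0.0890 and 0.0615 matches per kb both lay under the 0.169 of all sequence. The distal RUNX and grainyhead densities also lay under those of all sequence. GGGNNTTCC, of NF-kB, had 1.28 (1.16 to 1.41) and GGGGCGGGG, of SP and KLF factors, had 1.83 (1.55 to 2.16) at distal sites. TGACNNNGC had 0.991 (0.921 to 1.07). The latter can overlap an AP-1 match. Base composition moved with these ratios, since G and C made up 61.0% of A549-only, 58.7% of shared and 57.5% of B2B-only distal regions, and its part in them was not tested.

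**Figure D5:**
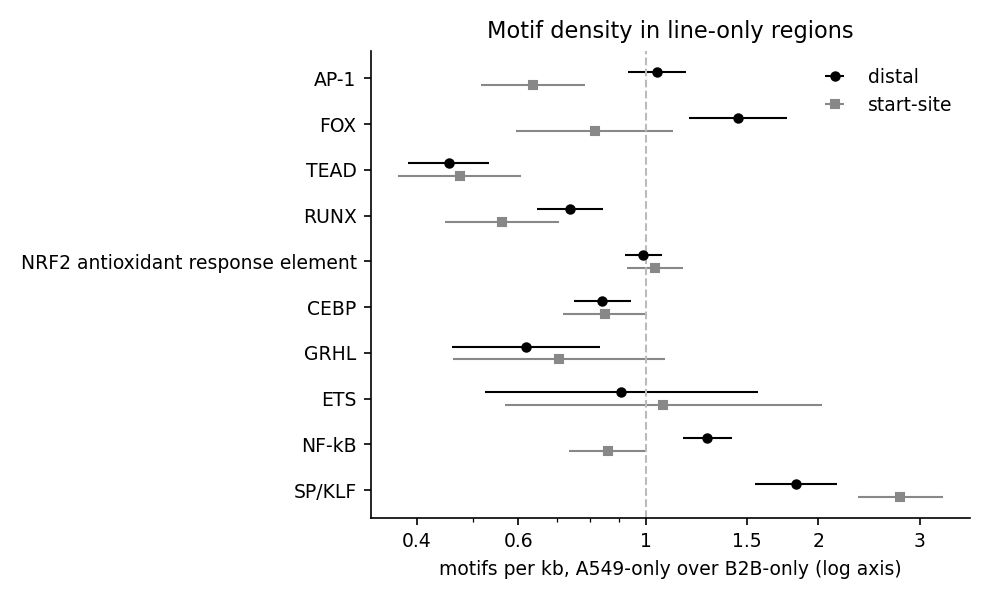
Points give the ratio of matches per kb in A549-only over B2B-only regions for 10 sequences, for distal (circles) and start-site regions (squares), on a log axis with 95% intervals for counting error and a dashed line at 1. TEAD stands at 0.454 and 0.475 and SP/KLF at 1.83 and 2.77, while the distal AP-1 interval spans 1.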

How the data were processed

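ChIP-seq peak lists of A549 and B2B were analysed on chromosomes 1 to 12. Per the labels and the study's methods, the authors aligned reads to hg38 with Bowtie2 2.4.4, removed duplicates, merged 2 replicates per target, and called peaks with MACS2 2.2.7.1. The options and control of each call are not given in the sources used here. The deposited lists give a score, a fold enrichment (a ratio to the local background) and −log10 p and q values for each peak. The score was not used. Depth per sample is unknown.

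H3K27ac peaks overlapping by 1 bp were merged and classed by list and by distance to GENCODE 44 start sites. Whole-number pileups and local backgrounds were solved from the deposited fold enrichment and −log10 p. Shares have Wilson, differences Newcombe or Bonett-Price, and motif ratios log-scale Poisson intervals. Regions, not samples, are their units, so that no test between samples was made. Steps were tested on simulated data.

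Distal regions were named for the nearest protein-coding start site. Named genes were, per line, the 8 with the largest excess of line-only distal regions, the 6 line-only promoters of highest fold enrichment without the other line's peak within 5 kb, and members of gene groups. A few genes that these rules name are not reported here. Printed windows came from the 4 strongest line-only regions per line and 2 shared ones, chromosome 8 left out. The members, groups and rules were chosen with earlier results of these data known. Peaks of CTCF and Rad21 were not used here. Python 3.11.15, NumPy 2.4.6, SciPy 1.17.1, pandas 2.3.3 and pysam 0.24.0 were used.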

Additional observations from a re-analysis of the deposited data

Results flagged for a closer look

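H3K27ac peaks outside chromosomes 1 to 12 enter no comparison. No peak list of the input samples was used here. The counts are tallies of the lists, so the limit of 3 that finding no peak would leave decides nothing about signal there. B2B had 15662 peaks on chromosomes 13 to 22, X and Y. A549 had 360, all on chromosome 13, where its list ends at position 52851492. B2B also had 30 peaks on unplaced sequences and the mitochondrial genome.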

How the results depend on the processing

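Each of 28 results was recomputed under up to 10 alternatives, of which the limit on pileup was chosen after seeing the data. Of 260 values, 224 kept their side of the threshold or moved within their counting interval or, for counts of genes, by under 1.5 times. The percent of start-site regions shared, 58.2, was 59 at a −log10 q of at least 5, 59.9 with H3K27ac lists of equal length, 32.6 with 50% reciprocal overlap, 68.1 with peaks within 1 kb merged, 49.4 with a start-site distance of 3 kb, 67.8 with protein-coding start sites alone and 65.3 at a pileup of at least 20 times the lowest background. In the same order without the first, the A549-only percent of line-only start-site regions, 70.3, was 64.9, 51, 73.7, 67.1, 73.3 and 60.5. At distal sites the shared percent, 18.0, was 18.5 with equal lists, 11.9 with reciprocal overlap, 18.9 with merging, 20.5 with protein-coding start sites and 20 with the pileup limit, and the A549-only percent, 60.9, was 53.8, 58.3, 62, 61.7 and 51.5. With 50% reciprocal overlap the B2B-only classes also hold regions that touch an A549 peak, and there the differences in Jun-family shares turned to 16.6, 11.5 and 9.5 points for JunB, Jun and JunD at start sites and to 2.64 and 0.315 points for JunB and JunD at distal sites. The JunD difference at B2B-only start-site regions left counting error with merging (-2.58) and with a distance of 3 kb (-0.583), and that of JunB lost its call under the pileup limit (-0.5). The Jun difference at shared distal regions was 0.432 with protein-coding start sites, 1 under the pileup limit, -0.921 when the Jun summit had to lie within 250 bp of the H3K27ac summit, and -0.704 with equal Jun lists. The own-line Jun difference between line-only distal regions was -1.14 under the pileup limit. The causes of these changes were not tested. Leaving out bins of 1 Mb without a start site changed no call.

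No paired analysis was possible because each list pools its 2 replicates, and for the same reason no replicate was left out. A missing peak shows only that none was called: weak acetylation under the reach of a list is not detectable here, least of all at B2B start sites, where the local background was highest. Copy number was not tested in either line.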
